A study of Mus musculus with 2 samples.

Results

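Replication-dependent histone genes encode the linker histone H1 and the core histones H2A, H2B, H3 and H4. They were taken as every GENCODE vM21 protein-coding gene whose symbol starts with Hist1h, Hist2h, Hist3h or Hist4h. These were 67 of 21938 protein-coding genes, and a gene was said to have a Myb peak when the summit of a peak lay within 3 kb of one of its annotated transcript starts. By this rule 57 of the 67 genes had a peak, and 76 of the 25793 Myb peaks belonged to them. The members were chosen by symbol with results of this peak list known, and their peaks were selected on the summit positions in it, so the values of the peaks are a description without a test.

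The chromatin came from WT mice. It was taken from Lin- bone marrow cells, which are bone marrow depleted of mature blood lineages and contain hematopoietic stem and progenitor cells. There was 1 library precipitated with an antibody against the transcription factor Myb (WT_Myb) and 1 with nonspecific rabbit IgG (WT_IgG), both from cells with a stated purity above 80%, so that the fraction is a mixture and still holds other cells. In the methods of the study, WT denotes Ep300 fl/fl mice without Cre, which received 3 poly(I:C) doses at 6 to 8 weeks of age. Whether the mice of these libraries were treated in this way, and their age at collection, is not stated for this experiment. The deposited list holds Myb peaks called over the IgG background, so every value below rests on 1 library per group and the spread between animals is unknown.

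Histones package DNA into nucleosomes, and a cell must make a new set of them each time it copies its genome. The replication-dependent genes supply this demand during S phase. They lie in dense clusters, mostly lack introns, and give mRNAs that end in a conserved stem-loop in place of a poly(A) tail. Many H2A and H2B genes are arranged head to head and share the DNA between their starts. Myb is a DNA-binding activator of hematopoietic progenitors that recognizes DNA words that are AACGG or AACTG with a C or T in front, called Myb words here.

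The peak with the highest fold enrichment among the histone genes was at Hist1h2bg, an H2B gene, just past its end. The next was upstream of the H3 gene Hist1h3d. The bases within 50 bp of these summits (mm10, + strand) are shown as examples of windows without a Myb word. None of the 10 strongest peaks held one, but such words were also rare over all 76 peaks (10.5%) and other promoter peaks (14.4%). The count thus does not set these 10 apart. With any base allowed before the last G, the Hist1h2bg window held a match. The other 3 windows are those of peaks that held a Myb word, upstream of Hist1h3a (H3), Hist2h2aa1 (H2A) and Hist3h2ba (H2B). Capitals mark the Myb word, which reads as its reverse complement where the word lies on the other strand.
Hist1h2bg summit, chr13:23572170-23572270: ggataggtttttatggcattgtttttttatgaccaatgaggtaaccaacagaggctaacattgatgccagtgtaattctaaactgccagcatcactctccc
Hist1h3d summit, chr13:23575296-23575396: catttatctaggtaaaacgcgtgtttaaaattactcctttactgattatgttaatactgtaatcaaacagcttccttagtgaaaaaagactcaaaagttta
Hist1h3a summit, chr13:23762437-23762537: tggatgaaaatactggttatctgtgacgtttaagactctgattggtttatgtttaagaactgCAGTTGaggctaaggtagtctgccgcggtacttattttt
Hist2h2aa1 summit, chr3:96244036-96244136: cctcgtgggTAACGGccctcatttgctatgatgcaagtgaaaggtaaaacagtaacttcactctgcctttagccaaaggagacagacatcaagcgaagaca
Hist3h2ba summit, chr11:58948610-58948710: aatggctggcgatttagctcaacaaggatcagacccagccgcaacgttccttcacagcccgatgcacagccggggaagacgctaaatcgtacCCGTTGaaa

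Myb peaks lay at 85.1% of the replication-dependent histone genes (95% Clopper-Pearson interval 74.3% to 92.6%), beside 39.9% of all protein-coding genes. The interval covers counting over genes only, and genes that share a peak are not independent. Closeness to another gene went with a higher share, for a reason that was not tested. Of the other protein-coding genes with the start of another gene within 3 kb, 65.5% had a peak, and 57 of the 67 histone genes were in that position. Of the other protein-coding genes with 1 annotated exon, 15.0% had a peak, and 62 of the histone genes have 1 exon. With the summit within 1 kb, 52 histone genes (77.6%) had a peak, beside 35.8% of all protein-coding genes, and within 500 bp 31 histone genes (46.3%) did, beside 31.8%. With peaks of a −log10 q of at least 5 the counts were 56 histone genes (83.6%) and 24.3% of all protein-coding genes. With a −log10 q of at least 20 they were 52 (77.6%) and 3.25%.

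Peaks were also counted by window, so that each shared peak entered 1 time. The merged 3-kb windows around the histone starts covered 226 kb and held 336 summits per Mb (95% exact Poisson interval 265 to 421). The windows around other protein-coding starts held 53.5 summits per Mb, so the density at histone genes was 6.29 times as high. With windows of 1 kb the ratio was 5.32 and with windows of 500 bp it was 3.33. The annotated start itself lay inside a peak for 54 histone genes (80.6%) and for 28.5% of all protein-coding genes.

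Closely packed genes shared most of the peaks. Of the 76 peaks, 25 were within 3 kb of 1 histone gene, 37 of 2, 12 of 3 and 2 of 4, so that 51 peaks (67.1%, interval 55.4% to 77.5%) were near at least 2 members and the peaks made 143 gene-to-peak links. Among the genes, 8 had 1 peak, 19 had 2, 23 had 3 and 7 had 4. The 7 genes with 4 peaks were Hist1h2bl, Hist1h2ai, Hist1h3e, Hist1h2bf, Hist1h2ad, Hist2h3c2 and Hist2h3c1. When each peak was given to the closest start alone, 48 genes (71.6%) kept one, and 9 genes were reached only by peaks closer to another member. A peak therefore often cannot be attributed to 1 gene of a cluster. In contrast, 3 of the peaks had a protein-coding start other than a histone gene within 3 kb. These were the peak of Hist3h2a, whose summit was 147 bp from its own start and 147 bp from that of Trim17, and the peaks of Hist2h2ab and Hist2h2be near Bola1.

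**Figure D1:**
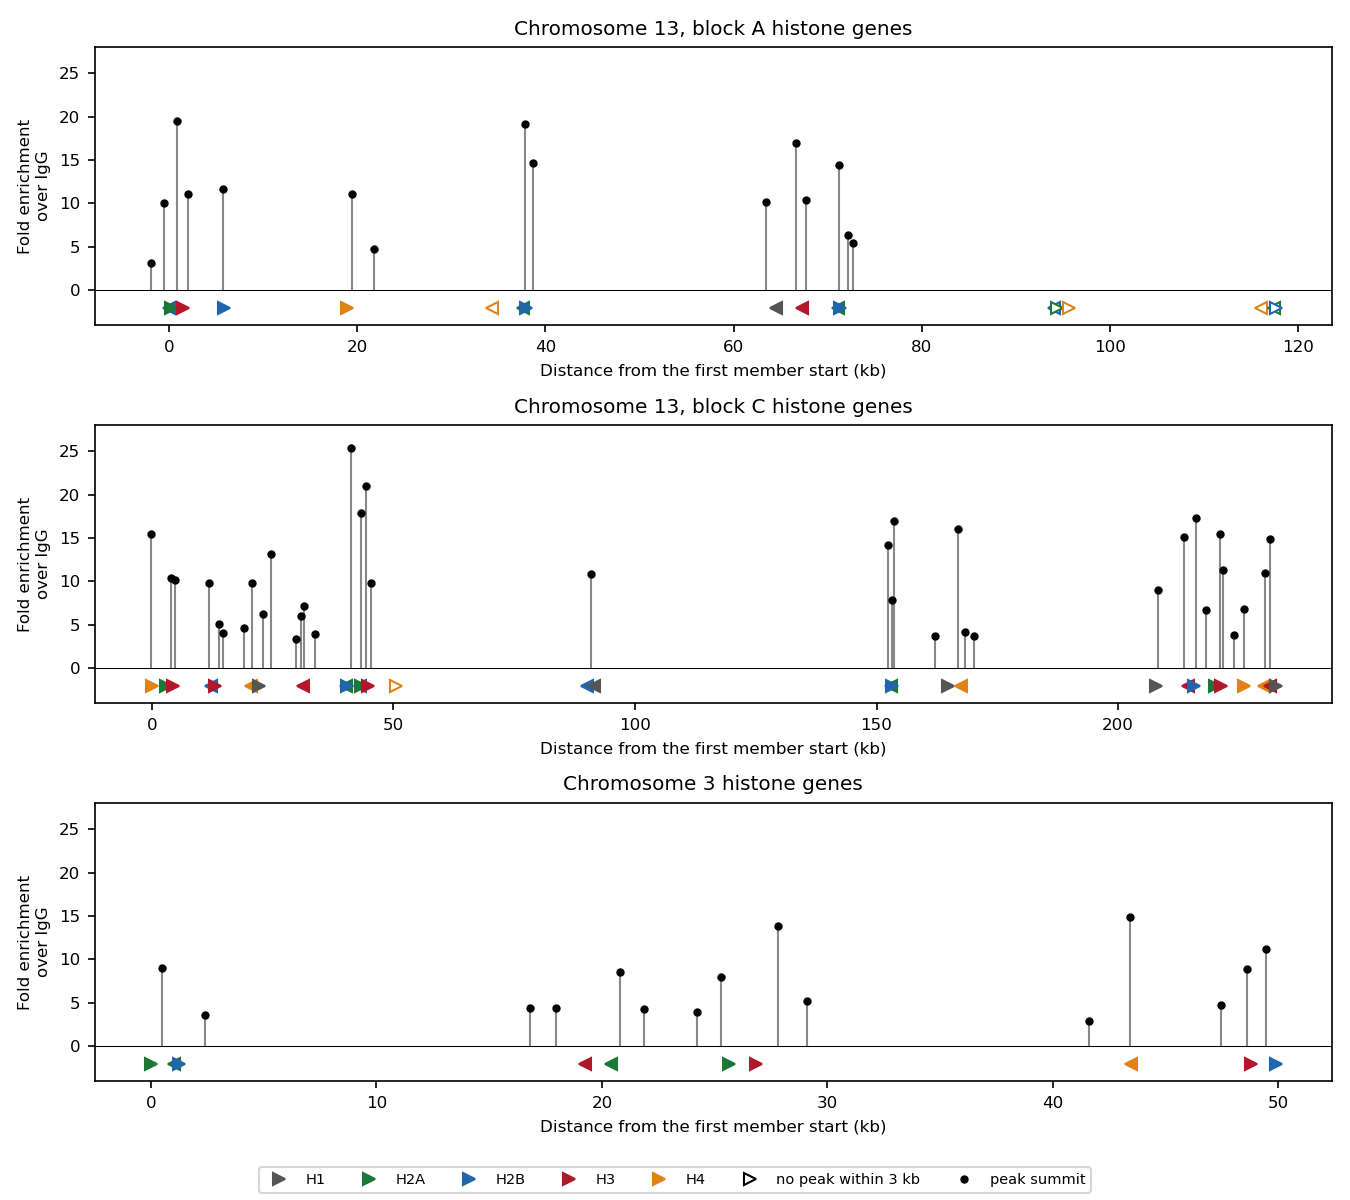
Myb peaks and histone genes along blocks A and C of chromosome 13 and along the chromosome 3 cluster, with distance in kb from the first member start on the horizontal axis and fold enrichment over IgG on the vertical axis. Stems are summits, and triangles are member starts that point in the direction of transcription, colored by histone type and open where there was no peak; the tallest peak (25.4) is that of Hist1h2bg in block C, and the 6 open starts at the right of block A have no peak around them.

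Peaks at histone genes were stronger and wider than peaks at other promoters. Fold enrichment is the pileup of Myb reads at the summit over the local IgG background, taken here with 1 added to both. At histone genes it had a median of 8.99 (quartiles 4.81 and 13.8, range 2.48 to 25.4, 76 peaks). The 13174 peaks at other protein-coding starts had a median of 4.52 (quartiles 3.71 and 5.88). The median −log10 q was 20.4 at histone genes and 4.58 elsewhere, and 41 of the 76 peaks (53.9%) reached a −log10 q of 20, as did 4.32% of the other promoter peaks. Histone peaks were 1444.5 bp wide at the median, beside 627 bp, and 30 were wider than 2 kb. A total of 16 of the 258 peaks in the highest 1% by fold enrichment lay at histone genes, as did 5 of the highest 100. At the other end, 4 histone peaks had a q above 0.05, of which 2 were closest to Hist3h2ba and the others to Hist1h2bl and Hist2h4.

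The reads behind these values were few. The fold enrichment and p of a peak together gave the number of reads at its summit, which was 41 at the median and ran from 11 to 80. The IgG background was solved on a scale where 1 Myb read counts 0.769, so it is not a count of IgG reads. At the same positions it was 2 at the median and ran from 1.46 to 6. The value 1.46 was the lowest background shared by many of 500 sampled rows and served as the floor of the solution. The background at Hist1h2bg was at this floor. Among the 10 strongest peaks, it was also at the floor for Hist1h3d, Hist1h2ai, Hist1h2bn, Hist1h2ad, Hist1h2bb, Hist1h2bc and Hist1h4c. For the remaining peaks of these 10, at Hist1h3i and Hist1h4h, it was 1.74 and 2.145. A fold enrichment of 25.4 at Hist1h2bg rested on 80 reads (95% exact Poisson interval 63.4 to 99.6), and the weakest of the 10 strongest peaks by read number had 50 reads (37.1 to 65.9). The intervals of the 10 strongest peaks overlapped, so their order was not resolved at this depth, and these intervals cover counting error only.

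The strongest peaks fell on genes of all the core histone types. Hist1h2bg (H2B) had the tenth highest fold enrichment of all 25793 peaks, and its peak lay 824 bp past the start and within 3 kb of Hist1h2ae, Hist1h2bf and Hist1h2ad. Hist1h3d (H3) followed with 21.0 at 417 bp before its start, within reach of Hist1h2ad and Hist1h2bf. Hist1h2ai (H2A) had 19.5 at 562 bp past the start, near Hist1h3h and Hist1h2bl. These 3 peaks rested on 80, 66 and 61 reads, and each was within 3 kb of more than 1 gene.

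Hist1h2bn (H2B) had 19.1 at 108 bp before its start, in the DNA it shares with Hist1h2ak. Hist1h2ad (H2A) had 17.9 at 38 bp before its start, near Hist1h2bf, Hist1h3d and Hist1h2bg. Hist1h2bb (H2B) had 17.3 at 528 bp past its start, near Hist1h3c. The summits of Hist1h2bn and Hist1h2ad lay between divergent starts, whereas that of Hist1h2bb lay past the end of the gene.

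Hist1h2bc (H2B) and Hist1h3i (H3) both had 17.0, at 536 bp and 595 bp past their starts, with Hist1h2ac and Hist1h1b the other members in reach. Hist1h4c (H4) had 16.03 at 588 bp past its start and was within reach of Hist1h1t, the testis linker histone gene. Hist1h4h (H4) had 15.5 at 172 bp before its start and was the sole member within 3 kb of this summit. The start of Hist1h2af also lay inside this 5364-bp peak, but outside the 3-kb limit from the summit. In all, 19 histone genes lay within 3 kb of the summits of the 10 strongest peaks, and all 10 peaks were on chromosome 13.

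Peaks were present at genes of all 5 histone types, with the lowest share at H4. All 6 H1 genes and all 12 H3 genes had a peak, as did 15 of 18 H2A genes (83.3%), 15 of 18 H2B genes (83.3%) and 9 of 13 H4 genes (69.2%, interval 38.6% to 90.9%). These intervals overlapped, with a lower bound of 54.1% for H1, 58.6% for H2A and H2B, and 73.5% for H3. The peaks assigned to the closest member had a median fold enrichment of 9.62 for H1 (6 peaks), 8.54 for H2A (11), 9.87 for H2B (21), 9.87 for H3 (23) and 9.82 for H4 (15). Within each type the values spread from below the median of other promoter peaks (4.52) to far above it. They ran, for example, from 2.48 to 25.4 for H2B and from 3.37 to 21.0 for H3.

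The H1 genes, which encode the linker histone that binds DNA between nucleosomes, differed in where their peaks lay. None of the 6 had a summit within 500 bp of the start and 3 had one within 1 kb. Within 500 bp there were 9 H2A, 9 H2B, 6 H3 and 7 H4 genes. The strongest peak closest to an H1 gene, at Hist1h1d, had a fold enrichment of 13.1 and lay 2452 bp past the GENCODE start. The RefSeq start of this gene is 1770 bp farther downstream, and the summit lay 682 bp past it. For the other 61 members found in RefSeq, the GENCODE start had a RefSeq start within 98 bp. The farthest member that still counted was Hist1h1t, whose closest summit was the peak of Hist1h4c, 2052 bp away, and whose other peak, 2766 bp before the start, had a fold enrichment of 3.70. Just outside the 3-kb limit were Hist1h4k at 3510 bp and Hist1h4d at 3693 bp.

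**Figure D2:**
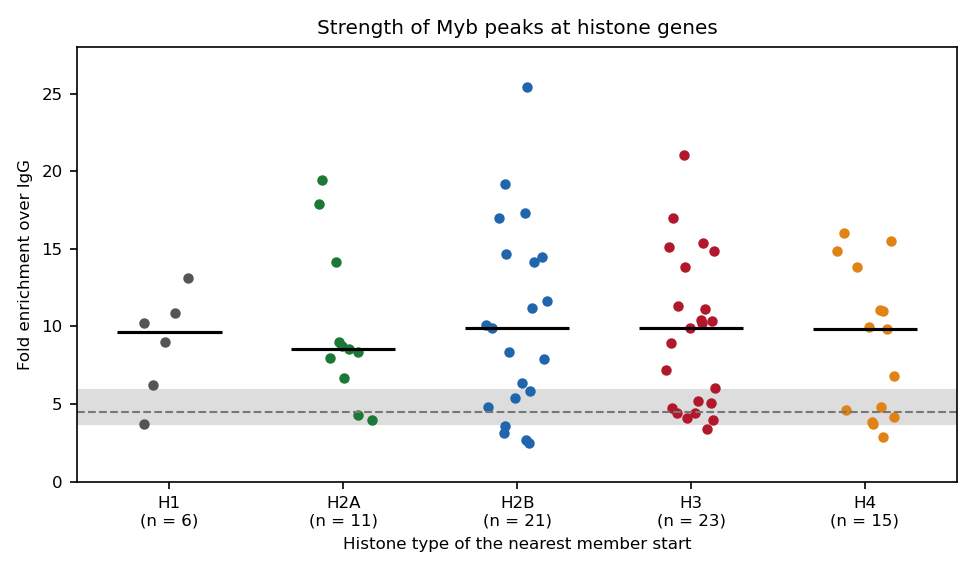
Fold enrichment over IgG of the 76 histone gene peaks by the type of the closest member; points are peaks, black lines are medians, and the dashed line and grey band are the median and quartiles of the 13174 peaks at other protein-coding starts. Medians of the 5 types lie between 8.54 and 9.87, all above the 4.52 of other promoters, and the types overlap widely.

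The genes fell into 7 clusters when neighbors more than 100 kb apart were separated, with 4 blocks of the Hist1 locus on chromosome 13. Block 13C, the largest with 29 genes over 233 kb, had peaks at 28 genes. Block 13A, with 18 genes over 118 kb, had peaks at 11 (61.1%, interval 35.7% to 82.7%). Block 13B had peaks at all 5 genes, and block 13D at neither of its 2 genes. Outside chromosome 13, peaks were at all 10 Hist2 genes on chromosome 3, both Hist3 genes on chromosome 11, and Hist4h4 on chromosome 6.

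Peak strength also varied between clusters. The strongest peak of 13A was that of Hist1h2ai (19.5), of 13B that of Hist1h2bk (14.2, 480 bp past the start) and of 13C that of Hist1h2bg (25.4). On chromosome 3, Hist2h4 had the strongest peak, at 14.8 and 45 bp past its start, but the median there was 5.20. Hist3h2a on chromosome 11 had a peak of 8.76, and the other peaks of that cluster, both closest to Hist3h2ba, were at 2.66 and 2.48 with a q above 0.05. Hist4h4, an H4 gene with no other replication-dependent histone gene nearby, had a peak of 13.8 at 120 bp past its start. The closest other protein-coding start to that summit was that of H2afj, a replication-independent H2A gene, 3949 bp away.

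**Figure D3:**
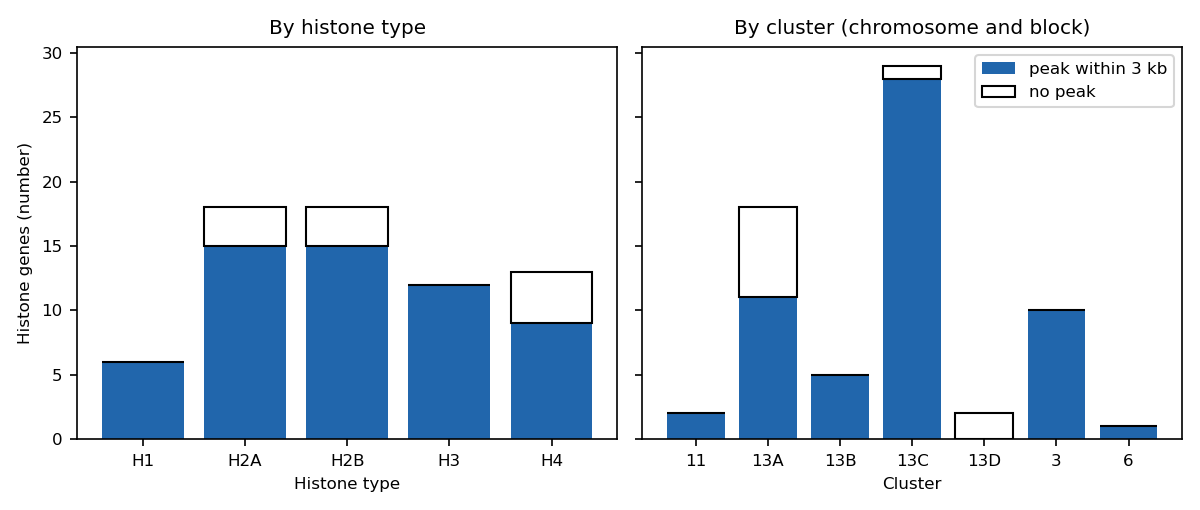
Number of histone genes with (filled) and without (open) a Myb summit within 3 kb of a start, by histone type on the left and by cluster on the right, with clusters named by chromosome and block. The 10 genes without a peak are 3 H2A, 3 H2B and 4 H4 genes, and 7 of them are in block 13A.

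The 10 genes without a peak formed 3 groups. In block 13A, 6 neighbors lay 8769 to 13230 bp from the closest summit: Hist1h2bq, Hist1h2ao and Hist1h4m, followed by Hist1h4n, Hist1h2ap and Hist1h2br. Hist1h4k, also in 13A, and Hist1h4d in 13C were close to summits outside the 3-kb limit. Hist1h2ba and Hist1h2aa, the divergent pair of testis H2B and H2A genes that makes up 13D, lay 19185 and 19491 bp from any summit.

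For Hist1h4k and Hist1h4d the absence depended on the use of the summit. The start of Hist1h4k lay inside the 6219-bp peak chr13:21748084-21754302, whose summit is that between Hist1h2ak and Hist1h2bn. The start of Hist1h4d lay inside the 8067-bp peak chr13:23578974-23587040, which had a fold enrichment of 14.2. The summit of the latter lay inside the long GENCODE span of Hist1h2be, 679 bp past a RefSeq start of that gene, which was counted here through its other start. With any base of the peak in place of the summit, 59 members and 11 of 13 H4 genes had a peak, so the lower rate of H4 rested on these genes together with Hist1h4m and Hist1h4n.

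The 6 neighbors in 13A lie in DNA that short reads could not tell apart. The authors removed alignments of low mapping quality, and reads of 75 bases from a repeated stretch would have been lost in that step. Every 75-base word within 3 kb of a member start, 226142 words in all, was therefore aligned to mm10 with the same program and settings, and a word was called kept when its mapping quality exceeded 30. Around the 6 neighbors at most 4.0% of words within 500 bp and 2.18% to 30.9% of words within 3 kb were kept. The stretch from Hist1h2bq to Hist1h4m is an inverted copy of that from Hist1h4n to Hist1h2br, and 2394 of its 2476 words (96.7%) occur in the other on the opposite strand. Few reads from these genes could have been kept, so the lack of a peak does not show whether Myb bound there.

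Of the 61 members with at least 50% of words kept within 3 kb, 57 (93.4%) had a peak, and of the 6 members under 50%, 0 had one. The level of 50% was chosen after the values were seen. Hist1h2ba and Hist1h2aa had 98.0% of words kept within 3 kb, Hist1h4d had 96.5% and Hist1h4k had 94.1%, so that most DNA around these 4 starts could give kept reads. Within 500 bp the share was lower for Hist1h4k, at 67.7%, and over its own span it was 26.9%. Hist2h3c2 and Hist2h3c1, near-identical H3 genes, kept 1.2% and 2.7% of words within 500 bp but 67.1% and 67.3% within 3 kb, and both had peaks. The strongest peak of Hist2h3c1 (13.8) lay inside its annotated span, 972 bp past the start. Within 500 bp, the 57 genes with a peak kept 67.3% of words at the median, beside 4.0% for the 10 without.

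**Figure D4:**
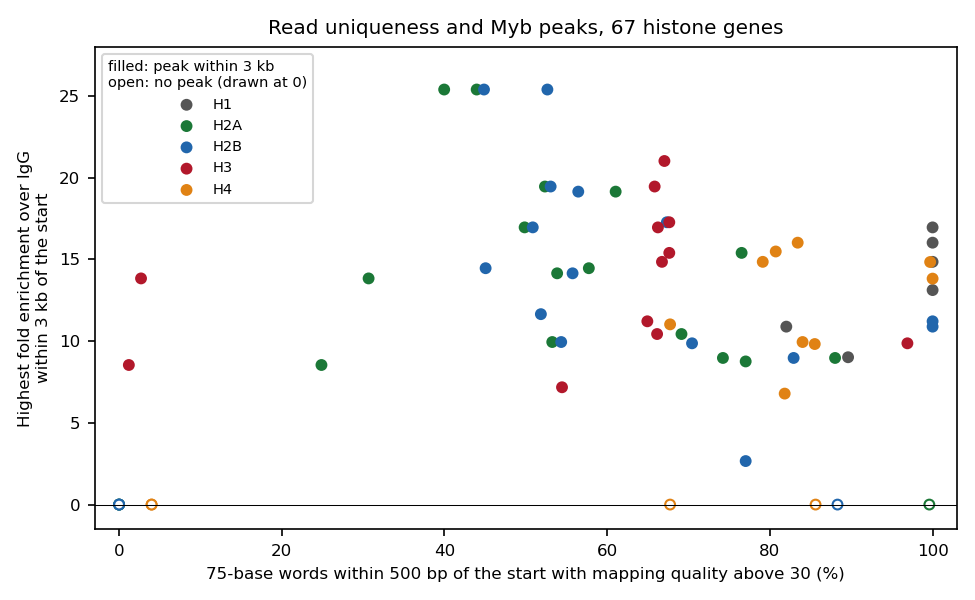
Share of 75-base words kept (mapping quality above 30) within 500 bp of each of the 67 histone gene starts on the horizontal axis, and the highest fold enrichment within 3 kb on the vertical axis, colored by histone type. Open points, drawn at 0, are genes without a peak; 6 of them lie at 0% to 4.0% of words kept and the other 4 lie between 67.7% and 99.6%, among the genes with a peak.

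The position of the summits relative to the genes differed from that at other promoters. Of the 76 summits, 14 (18.4%) lay in the 200 bp before the start of the closest member, beside 17.4% at other promoters. In the first 400 bp of the gene there were 4 (5.26%, interval 1.45% to 12.9%), beside 25.3%. In contrast, 18 (23.7%, interval 14.7% to 34.8%) lay 400 to 600 bp past the start, beside 4.80%. The median distance to the start was 547.5 bp for histone peaks and 364 bp for other promoter peaks.

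The summits 400 to 600 bp past the start lay close to the position of the histone stem-loop. The histone genes span 539 bp at the median, and a match to the histone stem-loop consensus of 16 bases was found in 63 of the 67, ending 462 bp past the start at the median. Of the 18 summits in this interval, 16 lay past the end of that match, by 68.5 bp at the median over all 18 (range −188 to 222 bp). Relative to the annotated gene, 9 of the 18 were inside it and 9 downstream, since the annotation of some members, such as Hist1h2bc and Hist1h2ac, runs well past the stem-loop. Members of each type were among them, with 1 summit for H1, 4 for H2A, 6 for H2B, 5 for H3 and 2 for H4. Both the interval and the stem-loop comparison were chosen after the positions were seen.

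Sequence uniqueness moved with this pattern too. Kept words made up 85.0% in the 200 bp before the starts, 41.5% in the first 400 bp and 81.2% from 400 to 600 bp. The summits themselves lay in unique DNA, with 100% of words kept within 100 bp at the median and 2 of 76 under 50%. Many histone peaks were interrupted over the genes: 47 pairs of adjacent peaks were separated by 500 bp or less (median 127 bp), and 28 of these gaps overlapped a member. In the gaps over members 0% of words were kept at the median, and in the other gaps 100%.

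Among the 13 members with peaks whose own span kept at least 80% of words, the 18 peaks had 2 summits in the 200 bp before the start, 3 in the first 400 bp, 3 at 400 to 600 bp and 3 at 600 bp to 1 kb. Among the 35 members below 80%, the 58 peaks had 12, 1, 15 and 6. Thus 3 of 18 summits lay in the first 400 bp where at least 80% of the annotated span was kept, and 1 of 58 where less was. The share over a long span does not measure the first 400 bp. Hist1h2bc, Hist1h2ac and Hist1h2bp kept 88.9%, 87.0% and 81.6% over their spans. Within 500 bp of their starts they kept 50.8%, 49.9% and 45.1%. Both summits in the 200 bp before the start in the group of at least 80% belonged to Hist1h2bc and Hist1h2bp. The level of 80% was also chosen after the values were seen. The part of mapping in the number, width and summit position of the peaks was not tested. The start annotation limits these distances as well, since 13 members start at their first coding base and lack an annotated leader.

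**Figure D5:**
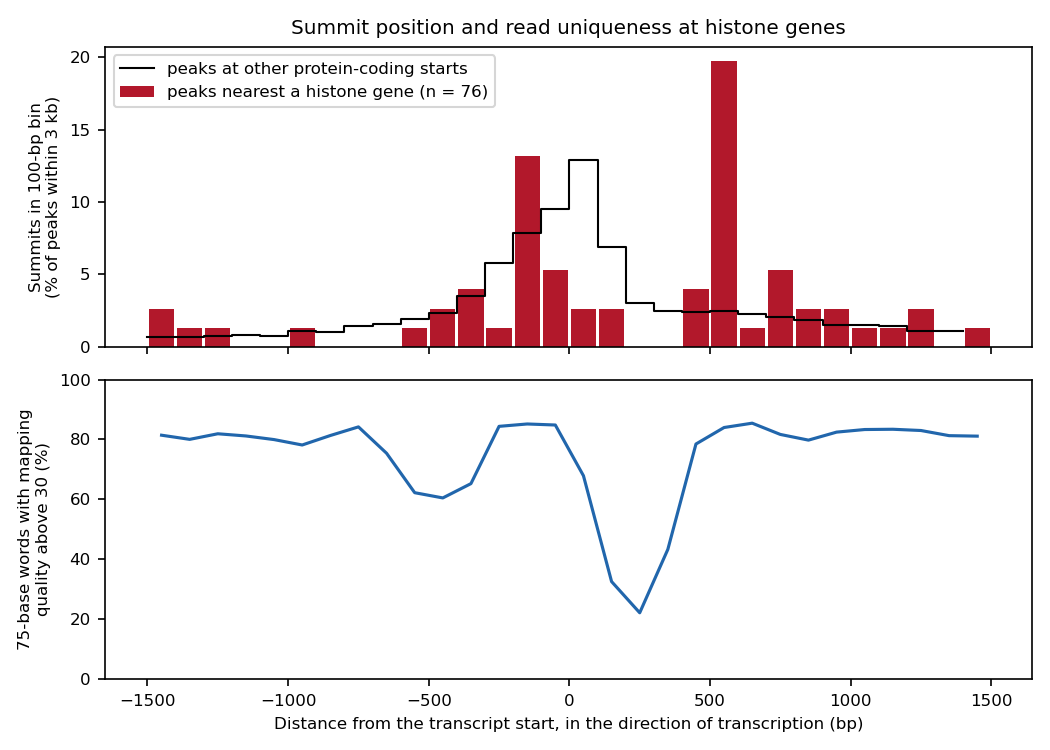
Upper panel, percent of summits in 100-bp bins of distance from the closest start in bp, positive in the direction of transcription, for the 76 histone gene peaks (bars) and the 13174 peaks at other protein-coding starts (line); lower panel, percent of 75-base words kept at the same distances from the histone starts. Histone summits are few in the first 400 bp (5.26%), where 41.5% of words are kept, and frequent at 400 to 600 bp (23.7%).

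The head-to-head pairs place both promoters in a short shared interval. There were 13 divergent pairs with starts at most 1 kb apart, made of 26 members, and 12 of them joined an H2A to an H2B gene. The starts were 268 bp apart at the median (range 176 to 660 bp). A summit lay within 3 kb of 10 pairs and between the starts of 5. The 3 pairs without any summit were Hist1h2bq with Hist1h2ao, Hist1h2ap with Hist1h2br, and Hist1h2ba with Hist1h2aa.

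The 5 pairs with a summit between the starts covered a wide range of fold enrichment. The highest were Hist1h2ak with Hist1h2bn (19.1), Hist1h2bf with Hist1h2ad (17.9) and Hist1h2an with Hist1h2bp (14.5). Hist1h2ac with Hist1h2bc (7.89) and Hist1h2ag with Hist1h2bj (5.81) were lower, and in both a stronger peak lay outside the interval, of 17.0 and 9.95. Among the pairs with no summit between the starts, Hist1h2bl with Hist1h2ai had its strongest peak of 19.5 past Hist1h2ai, and Hist1h2ah with Hist1h2bk had its strongest of 14.2 past Hist1h2bk.

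Shared intervals are printed whole for a pair with and a pair without a summit between the starts, from start to start on the + strand of mm10. That of Hist1h2bf and Hist1h2ad held a summit, and that of Hist1h2ae and Hist1h2bg lay inside the strongest peak but held no summit. Capitals mark the CCAAT box, the TATA box (TATAAA), the octamer (ATTTGCAT) and the Myb words on either strand.
Hist1h2bf to Hist1h2ad, chr13:23574196-23574381: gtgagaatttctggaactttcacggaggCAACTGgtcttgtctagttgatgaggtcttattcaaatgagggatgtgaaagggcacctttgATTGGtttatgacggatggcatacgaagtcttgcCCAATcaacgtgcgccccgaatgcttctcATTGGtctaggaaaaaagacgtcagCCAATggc
Hist1h2ae to Hist1h2bg, chr13:23571220-23571396: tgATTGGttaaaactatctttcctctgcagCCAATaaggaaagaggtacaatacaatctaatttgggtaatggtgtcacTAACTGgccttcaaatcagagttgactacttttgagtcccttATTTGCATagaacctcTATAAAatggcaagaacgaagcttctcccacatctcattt

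CCAAT, the box bound by NF-Y, was present in 4 copies between Hist1h2bf and Hist1h2ad and in 2 copies between Hist1h2ae and Hist1h2bg. Of these intervals, only that of Hist1h2ae and Hist1h2bg held TATAAA and the octamer, the site of the POU factor encoded by Pou2f1 in H2B promoters. The promoters of Hist1h2bf and Hist1h2ad in the RefSeq table used below did hold TATAAA. It lay past the annotated Hist1h2ad start, outside the printed interval. Both intervals held a Myb word. The interval of the testis pair Hist1h2ba and Hist1h2aa, which had no peak within 3 kb, held 4 copies of CCAAT, 2 of TATAAA, 1 octamer and a Myb word.

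The same elements were counted in the RefSeq promoter table (GRCm38.p6), which gives 300 bases for each start, 250 before and 50 after, and held 63 promoters of 62 of the 67 members. CCAAT was found on either strand in 54 of them (85.7%), beside 38.2% of all protein-coding promoters. It was present in every matched promoter of H1 (6), H2A (18), H2B (17) and H3 (10), and in 3 of 12 H4 promoters. TATAAA was found in 55.6%, beside 12.6% of all. The octamer ATTTGCAT was found in 14 promoters (22.2%), 7 of H2A and 7 of H2B and 0 of the other types, beside 1.66% of all. The same octamer was counted for both genes of the pairs Hist1h2aa with Hist1h2ba, Hist1h2ae with Hist1h2bg, and Hist1h2ah with Hist1h2bk.

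Myb words, which the rule did not use, were found in 18 of 63 histone promoters (28.6%), beside 26.5% of all protein-coding promoters. They were found in 15 of the 53 promoters of members with a peak (28.3%) and in 3 of the 10 of members without one. By type they were found in 8 of 17 H2B, 6 of 18 H2A, 2 of 10 H3, 1 of 6 H1 and 1 of 12 H4 promoters. Promoters of divergent pairs overlap, so the same word can count for both genes. This held for Hist1h2ad with Hist1h2bf, Hist1h2ae with Hist1h2bg, Hist1h2ag with Hist1h2bj, and Hist1h2an with Hist1h2bp. It also held for Hist1h2aa with Hist1h2ba, which are among the members without a peak.

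At the summits a Myb word lay within 50 bp for 8 of the 76 peaks (10.5%, interval 4.66% to 19.7%). In equal windows 500 bp away on either side it was 11.8%. At the summits of other promoter peaks the share was 14.4%, beside 10.2% in their flanks. The 8 peaks were those of Hist3h2ba (CAACGG), Hist1h2bh (TAACTG), Hist1h3d (CAACTG, in the weaker of its peaks), Hist1h1e (CAACTG), Hist1h3a (CAACTG), Hist2h3b (CAACTG), Hist2h3c2 (CAACTG and TAACTG) and Hist2h2aa1 (TAACGG). Their fold enrichment ran from 2.48 at Hist3h2ba to 14.9 at Hist1h3a, and 4 of the 8 were in the upper 38 of the 76 peaks. Summit windows of histone peaks had a GC content of 41.6% at the median (quartiles 35.6% and 47.8%), beside 52.5% at other promoter peaks. A match describes letters in a window and does not show a binding site.

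Genes that act with the replication-dependent histone genes were also examined. Of 12 histone genes grouped here as replication-independent, 8 (66.7%) had a peak, beside 39.9% of all protein-coding genes. The median was 7.96 for the strongest peak of each gene. H2afx, which encodes the H2A variant phosphorylated at DNA breaks, had the highest, at 20.3, whereas H1fx, H1f0, H2afy2 and H2afb1 had none.

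Of 19 genes for histone gene transcription and histone mRNA processing, 17 (89.5%) had a peak, beside the same 39.9%. Npat, which encodes the coactivator of the histone clusters, had 5.95, and Slbp, which encodes the protein that binds the stem-loop, had 6.68. The highest were Yy1 (13.7) and Pou2f1 (9.05), and Lsm10 and Lsm11, which encode subunits of the U7 snRNP, had none. Of 19 genes for histone chaperones and the acetylation of newly made histones, 17 (89.5%) had a peak, beside 39.9% again, with the highest at Asf1a (9.32) and Rbbp4 (8.82) and none at Nap1l1 and Rbbp7. The medians of these lists were 6.04 and 5.95 for the strongest peak of each gene, unlike the earlier medians over all peaks. Taken in the same way, with shared peaks counted for each gene, the histone types had medians from 13.8 (H4) to 14.3 (H3).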

How the data were processed

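Single-end reads of 75 bases were processed by the authors with Cutadapt 1.15 for trimming, BWA 0.7.13 for alignment to mm10 and Picard for removal of duplicates. Low mapping quality and blacklisted regions were removed, and peaks were called over the IgG library with MACS2 2.1.1.20160309. Per the submitters' processing notes and methods, 1 library per group was used, and calls were kept by overlap of pseudo-replicates. The methods state a q below 0.05, but the deposited list also holds peaks with a q above it. The genes with a peak here are therefore not the Myb target set of the paper. The deposited list gives the fold enrichment, the −log10 of p and q, and a score derived from p. Fold enrichment is a linear ratio over IgG, solved here with 1 added to the pileup and to the background. Total depth per library is unknown from the list. The IgG file and alignments were not used here.

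Summits were matched to GENCODE vM21 starts. The members, gene lists and tests were chosen with earlier results of these data known. Genes named with values were the 10 strongest peaks, the strongest of each type and cluster, divergent pairs, and all members without a peak. Reads were solved from fold enrichment and p (tolerance 0.004) in scripts tested on simulated data; of 500 rows, 99.8% gave whole reads. Words of 75 bases were aligned with BWA 0.7.19 (-q 5 -l 32 -k 2). Sequences came from RefSeq (GRCm38.p6, the assembly of mm10). Shares have 95% Clopper-Pearson intervals (SciPy 1.17.1), reads exact Poisson intervals; neither covers variation between animals, and duplicates removed without molecular identifiers leave counting error only. Groups were taken from sample titles. Alternatives covered the q threshold, distance, start set, peak assignment and motif.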

Additional observations from a re-analysis of the deposited data

How the results depend on the processing

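With 1 library per group no replicate could be left out, and no difference was tested. No paired analysis was possible because there was 1 library per group and no value came from a test. Of 60 recomputed summary values, 38 stayed within their interval or, for counts, within 1.5 times the main value. The median strength as −log10 q is in another unit and was counted as moved. The share of all protein-coding genes with a peak was 36.96% at a −log10 q of at least 2, 38.4% at q up to 0.05, 24.3% at a −log10 q of at least 5, 36.5% with the 5′ end of the gene alone, 35.8% within 1 kb and 31.8% within 500 bp. Within 500 bp, 31 histone genes (46.3%) and 27 peaks remained, and 18.5% of the peaks were near at least 2 members, against 33.96% within 1 kb. The share of members fell to 71.6% when each peak counted for the closest member alone. The median fold enrichment was 10.7 at a −log10 q of at least 5 and 10.9 within 1 kb, and the median strength was 20.4 as −log10 q. Summit density was 528 and 466 per Mb for members and 99.2 and 140 per Mb for other genes with 1-kb and 500-bp windows. The share of summits with a Myb word was 21.1% within 100 bp, beside 18.4% in the flanks. Within 50 bp it was 51.3% for AACNG, beside 48.0% in the flanks. With any base before the last G it was 22.4%, beside 20.4%. With RefSeq starts added to the GENCODE starts, an alternative chosen after seeing the data, the count was 57 members and 78 peaks. Of 96 counts by type and cluster, 11 moved by over 1.5 times. The cause of these shifts was not tested.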
